A study of Rattus norvegicus with 12 samples.

Results

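Dissected medial entorhinal cortex of postnatal day 23 was set against cells sorted from the same region at postnatal day 4 or 5, using all 12 samples of a TaqMan low density card. The medial entorhinal cortex (MEC) is the parahippocampal area whose layer II stellate cells project to the dentate gyrus. The tissue group was the 2 samples labelled as dissected MEC of Long Evans rats, collected into RNAlater and described as a control to compare technologies. The sorted group was 10 samples from Long Evans pups given the dye DiO in both dentate gyri on postnatal day 2: 5 of DiO-positive cells (stellate) and 5 of DiO-negative cells (non-stellate). No genotype is given for either group. The injected pups had surgery under isoflurane and received the analgesic rimadyl, and neither injection nor analgesic is described for the tissue rats. DiO labels cells through their axons, so the stellate group holds whatever was labelled from the injection, and the non-stellate group holds all unlabelled cells that survived dissociation and the sort.

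The card reads Ct, the PCR cycle at which a signal crosses threshold, so 1 cycle is about 1 unit of log2 abundance and a low Ct is a high level. Wells with no signal carry 40 and are called undetermined here. All 375 miRNA assays of the card entered; U6, 4 other reference RNAs and a plant control were kept out. Each sample was scaled by its median Ct over the 176 miRNA assays that were determined in all 10 sorted samples, and these 176 were also determined in both tissue samples. A scaled level is therefore the log2 abundance above the median assay of that sample, and a difference is tissue minus the mean of both sorted groups.

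MicroRNAs are RNAs of about 22 bases that lower the translation and stability of mRNAs paired to bases 2 to 8 of the miRNA, the seed. Members of a family share the seed and hence many targets, and miRNAs made from 1 primary transcript form a cluster. In postnatal cortex, neurons leave the immature state, synapses form, glia divide, and myelination begins, and many miRNAs are known by which of these cells and stages they belong to.

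Age, the surgery with dye and analgesic, dissociation and sorting, extraction kit and RNA input differed together between tissue and sorted cells. Sorted cells were extracted with the RNAqueous Micro kit, and 2.5 µl was taken into pre-amplification because little RNA was at hand. For the tissue, the labels name the mirVana kit and the study's methods another kit. These factors cannot be told apart from each other in any value below, nor can a lower share of a cell type and less RNA per cell of that type.

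The following sequences belong to the miRNAs that carried the largest or most instructive differences, with the seed in capitals (rat RefSeq, GRCr8, 5′ to 3′). The first set shows miRNAs that were higher in tissue, with the miR-29 and miR-30 seeds repeated across members.
miR-29a: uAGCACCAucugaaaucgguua
miR-29b: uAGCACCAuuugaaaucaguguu
miR-29c: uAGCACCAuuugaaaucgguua
miR-30a: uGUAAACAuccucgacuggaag
miR-30c: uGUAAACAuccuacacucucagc
miR-384-5p: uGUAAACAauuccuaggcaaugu
miR-384-3p: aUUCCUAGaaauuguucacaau
miR-137: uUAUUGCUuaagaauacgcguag
miR-218: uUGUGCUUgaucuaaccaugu
miR-132: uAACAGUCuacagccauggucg
miR-126-5p: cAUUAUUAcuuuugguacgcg

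The second set shows miRNAs read in tissue and in few or none of the sorted samples.
miR-451: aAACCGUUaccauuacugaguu
miR-369-3p: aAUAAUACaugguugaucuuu
miR-219: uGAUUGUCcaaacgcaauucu

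The third set shows miRNAs that were lower in tissue, and 2 family members (let-7f and miR-19a) that did not share the fall of close relatives.
let-7b: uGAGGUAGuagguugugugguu
let-7c: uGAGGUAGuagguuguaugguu
let-7f: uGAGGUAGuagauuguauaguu
miR-17: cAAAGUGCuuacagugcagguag
miR-20b: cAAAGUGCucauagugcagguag
miR-92a: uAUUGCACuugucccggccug
miR-19a: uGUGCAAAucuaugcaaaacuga
miR-15b: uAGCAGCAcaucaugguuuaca
miR-449a: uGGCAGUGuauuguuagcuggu
miR-672: uGAGGUUGguguacuguguguga
miR-370: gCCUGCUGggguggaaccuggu
miR-770-3p: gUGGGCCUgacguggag
miR-296-3p: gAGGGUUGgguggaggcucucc

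Tissue and sorted samples differed in how much was readable. The tissue samples had 292 and 302 determined miRNA assays, and the sorted samples between 203 and 260 with a median of 241. The median Ct of the common assays was 23.7 in both tissue samples and ran from 27.96 to 30.9 in the sorted samples (exact two-sided permutation p = 0.0152 for each of these measures, the smallest that 2 against 10 allows). The difference in median Ct was -5.30 cycles, so sorted wells sat nearer to the limit of detection, and an undetermined sorted well bounds a level less tightly than an undetermined tissue well.

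The tissue samples were close to each other. Over the 230 assays under Ct 30 in both, their scaled levels differed with an SD of 0.389 cycles, below the 0.518 cycles that single wells would differ by at the U6 well spread pooled over all 12 cards. The 4 U6 wells of the tissue cards themselves had SDs of 0.031 and 0.286, so the gap was not shown to be under the noise of those cards. Over the tested assays determined in both tissue samples the SD of their difference was 0.559, and over assays determined in all 12 samples it was 0.467, while the 45 pairs of sorted samples gave SDs from 0.746 to 2.54. The labels give the tissue as separate replicates and do not say whether they came from separate animals, so counts are also given with both tissue samples averaged to 1.

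Of the sorted samples, non-stellate 3 and 5 carry a description that reads as labelled cells, against their other labels, which call them DiO-negative. They were kept in the non-stellate group, and without them 56 miRNAs were higher in tissue and 60 lower, against 53 and 56 with them.

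Relative to the median assay, about as many miRNAs were called higher in tissue as lower. Of 222 assays determined in at least 7 sorted samples, 109 passed a limma adjusted p under 0.05 (49.1%), 53 of them higher in tissue (23.9% of those tested) and 56 lower (25.2%). The median difference over the 222 was 0.03, the SD of the differences was 2.61, and 86 assays differed by more than 2 on the log2 scale. The scaling places the median difference near 0, so the balance of higher and lower calls follows in part from it. The filter on sorted wells keeps out assays read mainly in tissue. With all assays under 40 in at least 2 of 12 samples, 66 were higher and 57 lower. With the tissue averaged to 1 sample, 26 were higher and 39 lower, and all 65 of these were among the 109 calls. Some of the called miRNAs named below did not pass with 1 tissue sample. On the higher side these were miR-19a, miR-21, miR-26b, miR-27b, miR-30e, miR-124, miR-125a-5p, miR-126-3p, miR-126-5p, miR-130a, miR-204, miR-376c, miR-384-3p, miR-544 and rno-miR-450a. On the lower side they were miR-125a-3p, miR-134, miR-296-5p, miR-375, rno-miR-381, miR-497, miR-687, miR-106b and miR-34b-3p. Tissue lay above every sorted sample in 60 tested assays (27% of them) and below every sorted sample in 58 (26.1%), and 100 of the 109 called assays did not overlap.

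Of the 5 reference RNAs, 4 were less abundant relative to the miRNAs in tissue, and Y1 was not shown to differ. U6 Ct minus the median miRNA Ct was -7.74 and -8.10 in tissue and between -12.3 and -9.89 in sorted cells, a difference of 2.99 cycles (exact two-sided permutation p = 0.0152). U87 and snoRNA135, both small nucleolar RNAs, differed by 3.74 and 3.38 cycles (exact permutation p = 0.0152 for each) and snoRNA202 by 3.22 (exact permutation p = 0.0303). Y1, the RNA of the Ro particle, differed by -0.52 (exact permutation p = 0.409).

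Scaling by reference RNAs turned part of the lower calls positive. Both reference scalings add a positive constant to every difference, so no higher call could change sign under them. Scaling by U6 adds 2.99 to each difference and gives 138 miRNAs higher and 3 lower, and scaling by the mean of the other 4 references adds 2.46 and gives 134 and 9. Of the 56 miRNAs called lower relative to the median assay, 30 had positive differences with U6 and 26 stayed below 0. MiR-449a, miR-467b, miR-672, miR-92a, miR-17 and let-7c stayed below 0 with U6, and let-7e, miR-134, miR-370, miR-770-3p and miR-15b turned positive. A difference here is a change relative to the median miRNA and not per cell or per unit of RNA.

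**Figure D1:**
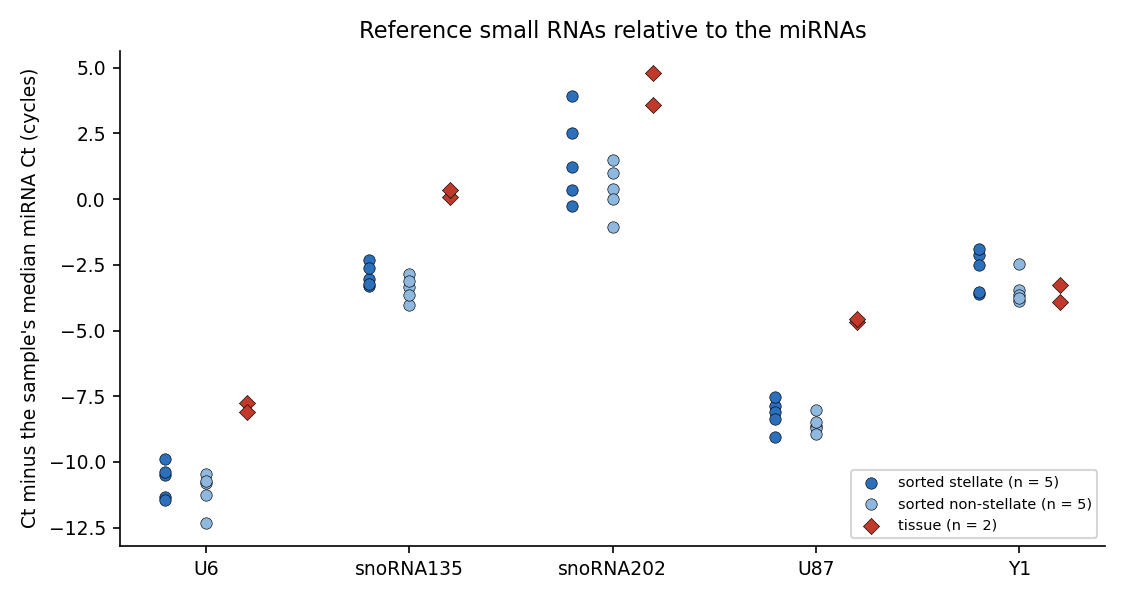
Ct of U6 and 4 other reference RNAs minus the sample's median miRNA Ct (cycles, y axis), each point 1 sample. Tissue lies 2.99 cycles above the sorted mean for U6, 3.38 for snoRNA135 and 3.74 for U87, and within the sorted range or next to it for Y1.

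The order of abundance also changed. MiR-9, a miRNA of neural progenitors and neurons, was the most abundant assay in both groups, with scaled levels of 8.36 and 8.36 in tissue and 7.36, 8.26 and 8.97 (lowest, median, highest) in sorted cells. The groups overlapped and the difference was 0.17 ± 0.35 (SE, limma adjusted p = 0.712). MiR-328, miR-218, miR-30c and miR-125b-5p followed in tissue, and let-7c, let-7b, miR-328 and miR-17 followed in sorted cells. Of the 20 most abundant assays in each, 8 were shared.

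**Figure D2:**
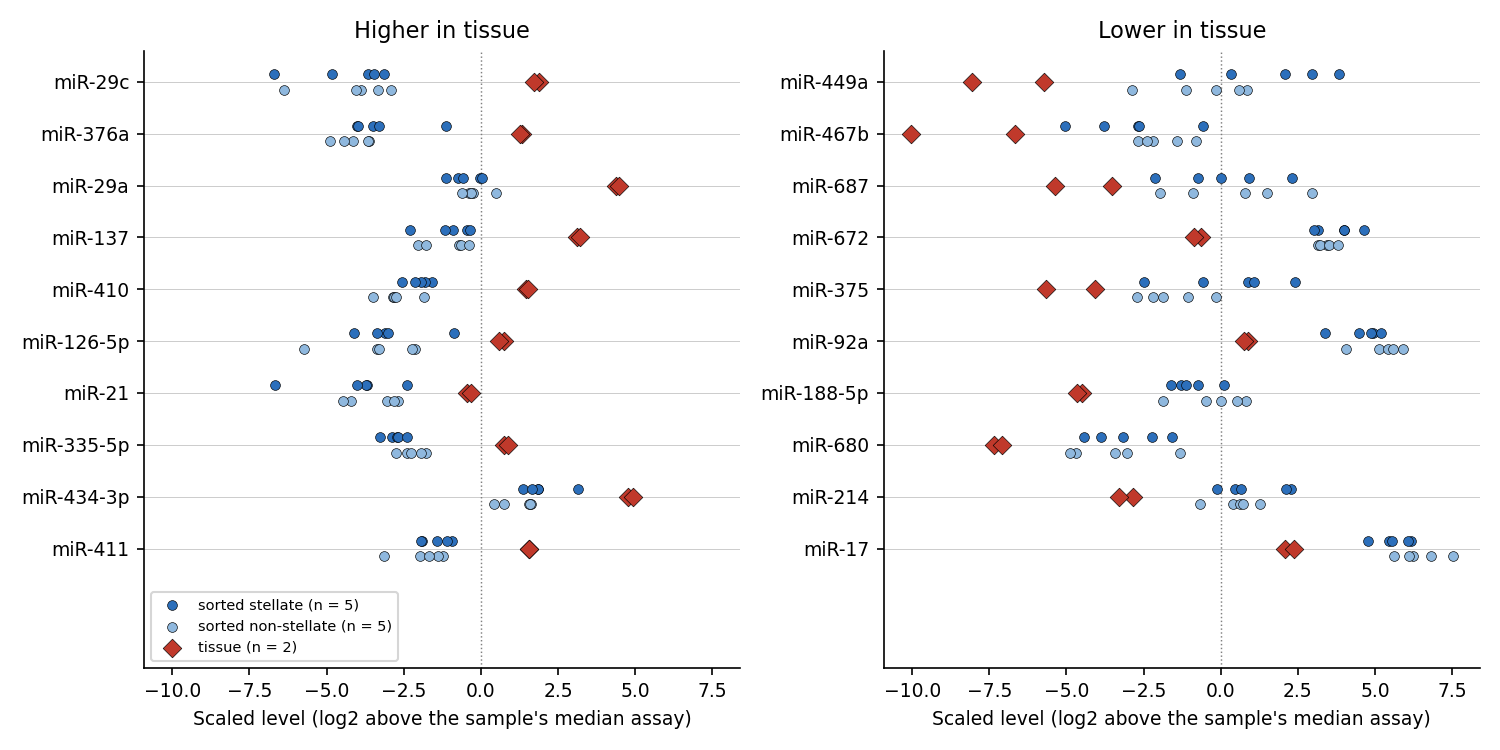
Scaled level (log2 above the sample's median assay, x axis) of the 10 miRNAs with the largest positive and the 10 with the largest negative difference among called assays determined in all 12 samples with no overlap between groups. Each point is 1 sample; the tissue diamonds lie outside the sorted points in all 20 rows, for example at 4.37 and 4.46 against at most 0.51 for miR-29a.

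The miR-29 family, which targets collagens and pro-apoptotic mRNAs and is known to increase as neurons mature, was the family with the highest median difference. MiR-29a had scaled levels of 4.37 and 4.46 in tissue and of -1.14, -0.35 and 0.51 (lowest, median, highest) in sorted cells. Both tissue samples were above all sorted samples, and the difference was 4.77 ± 0.37 (SE, limma adjusted p = 5.6e-06). MiR-29c stood at 1.89 and 1.71 against -6.72, -3.77 and -2.91, a difference of 6.03 ± 0.96 (SE, limma adjusted p = 0.000406).

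MiR-29b gave -0.46 and -0.21 in tissue and at most -4.30 in sorted cells, with 3 sorted wells undetermined. Its difference of 6.64 ± 1.33 (SE, limma adjusted p = 0.00185) depends on the 40 entered for those wells. MiR-29a and miR-29c differ by 1 base outside the seed, so the assays may read each other in part. MiR-29a and a copy of miR-29b lie next to each other on chromosome 4 (GRCr8 chr4:60617968-60617989 and chr4:60618342-60618364, minus strand), and miR-29c on chromosome 13 (chr13:109099412-109099433, plus strand). All 3 members stayed higher with the tissue averaged to 1 sample.

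The miR-30 family moved by a nearly equal amount in each member. Its 5 assays were all higher in tissue, with differences from 1.45 to 1.53 and a median of 1.47, and 3 of the 5 passed with tissue as 1 sample. Over all tested assays 23.9% were higher. MiR-30c, the most abundant of the family in tissue, had 5.43 and 5.25 against 3.12, 3.97 and 4.16 in sorted cells, with no overlap (difference 1.46 ± 0.26, SE, limma adjusted p = 0.000821).

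MiR-384-5p, which is encoded on the X chromosome and carries the miR-30 seed, was named after its values were seen. It had 4.56 and 4.30 in tissue against 0.59, 1.41 and 1.79 in sorted cells (difference 3.16 ± 0.34, SE, limma adjusted p = 2.88e-05). The other arm of its hairpin, miR-384-3p, had the largest positive difference of all tested assays, 6.77 ± 1.98 (SE, limma adjusted p = 0.0155), with 3 sorted wells at 40 and an adjusted p of 0.0998 with tissue as 1 sample.

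Of 10 tested assays from a list of miRNAs enriched in neurons, 4 were higher, 0 were lower and 6 were not called (median difference 1.27), where 23.9% of all tested assays were higher. MiR-137, which acts in neuronal maturation and at synapses, had 3.11 and 3.22 in tissue and -2.29, -0.81 and -0.34 in sorted cells (difference 4.23 ± 0.54, SE, limma adjusted p = 9.76e-05). MiR-218, enriched in neurons and coded within introns of the Slit genes, had 5.63 and 5.33 against 0.88, 2.46 and 3.62 (difference 3.05 ± 0.55, SE, limma adjusted p = 0.000864). For both, every sorted sample was below the tissue.

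MiR-124, a marker of differentiated neurons, differed by 1.27 and miR-129-3p by 1.82, and both were called higher. MiR-138 and miR-128a differed by 1.43 and 1.28 and were not called, since the sorted samples spread from 1.88 to 6.36 for miR-138 and from 1.71 to 4.67 for miR-128a. The summed scaled level of the list's 11 assays, on the log2 scale, was 8.85 and 8.77 in tissue and 7.62 to 9.04 in sorted cells. This sum overlapped between the groups, but it was mostly miR-9. MiR-9 alone had 8.36 in both tissue samples and 7.36 to 8.97 in sorted cells. The sum therefore does not describe the other members, and 9 of the 10 tested assays had differences above 0.

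Among miRNAs regulated by neuronal activity, miR-132 and miR-134 went opposite ways. MiR-132, which is induced through CREB, had 5.02 and 5.20 in tissue against 2.00, 2.76 and 3.55 in sorted cells (difference 2.36 ± 0.30, SE, limma adjusted p = 9.76e-05). MiR-134, a dendritic miRNA from the Dlk1-Dio3 region, was lower (-0.69 and -0.77 against 0.47, 1.13 and 3.54, difference -1.97). With a correction for G and C content, described below, miR-134 was no longer called (-0.44, limma adjusted p = 0.574).

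**Figure D3:**
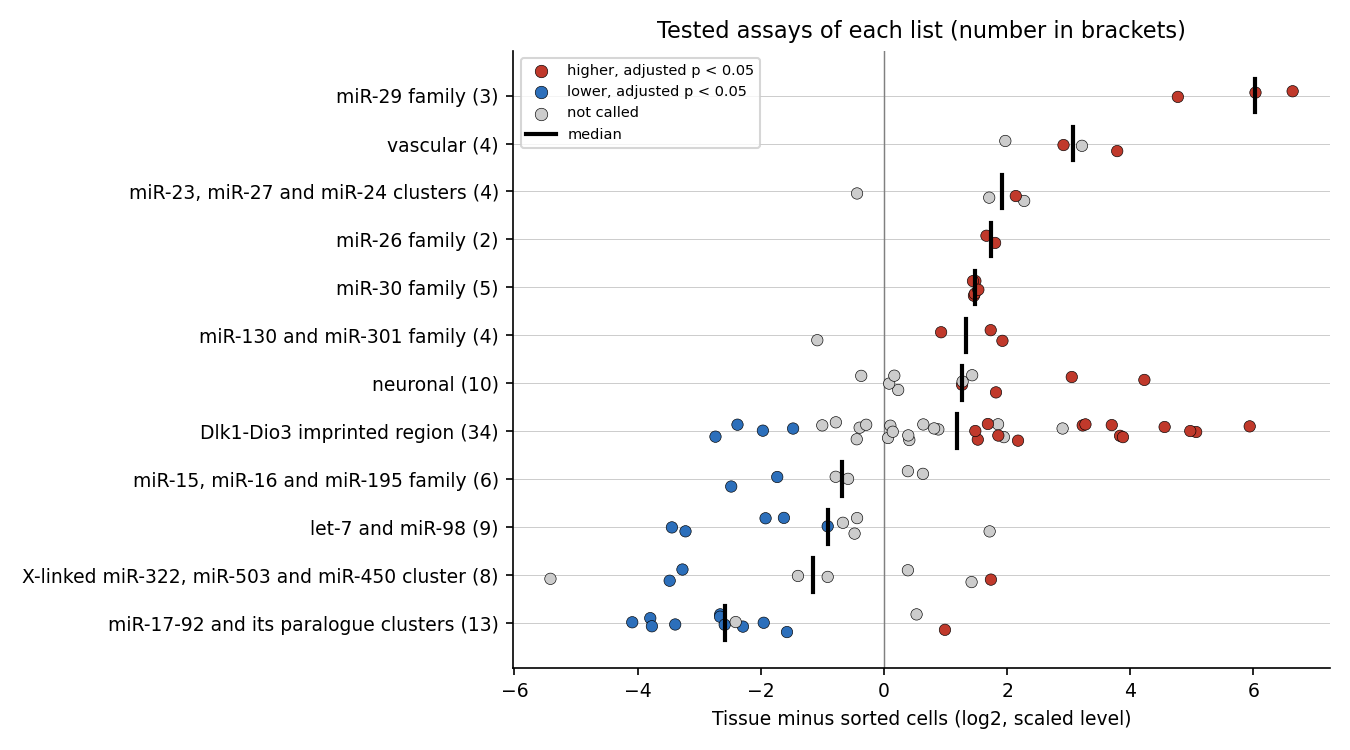
Difference between tissue and sorted cells (log2 of scaled level, x axis) for the tested assays of 12 lists; each point is 1 assay, coloured by the limma call, and the bar is the list's median. The miR-29 assays lie between 4.77 and 6.64 and the miR-30 assays between 1.45 and 1.53, while the miR-17-92 assays run from -4.09 to 0.99.

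The miR-17-92 cluster and its paralogues, which drive proliferation of progenitors, were mostly lower in tissue. Of 13 tested assays 10 were lower and 1 was higher, where 25.2% of all tested assays were lower and 23.9% higher. The median difference was -2.59. With U6 as the scale, 4 of the 10 lower assays stayed below 0. MiR-17 had 2.09 and 2.38 in tissue against 4.78, 6.09 and 7.52 in sorted cells (difference -3.79 ± 0.47, SE, limma adjusted p = 8.93e-05). MiR-92a had 0.88 and 0.74 against 3.39, 5.03 and 5.89 (difference -4.09 ± 0.51, SE, limma adjusted p = 8.93e-05). The tissue was below every sorted sample for both.

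The members of the cluster itself differed although they come from 1 primary transcript. Its 7 assays lie within 762 bases (GRCr8 chr15:98587861-98588622, plus strand) and spanned 5.08 on the log2 scale. MiR-19a was higher, at -1.71 and -1.69 in tissue against -3.46, -2.54 and -2.12 in sorted cells (difference 0.99 ± 0.36, SE, limma adjusted p = 0.0414, and 0.185 with tissue as 1 sample). MiR-19b differed by 0.53 and was not called. The mature sequences of miR-17 and miR-92a each matched a further locus, which the same assays would read.

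In the miR-106b-25 cluster on chromosome 12, all 3 assays were lower, from -2.66 for miR-25 to -1.57 for miR-106b. The assay for miR-106a, a paralogue of miR-17 with the same seed, gave -3.77, nearly the value of miR-17, and these 2 assays may read the same RNA. MiR-20b, which differs from miR-17 by 2 bases, gave -3.39 ± 0.73 (SE, limma adjusted p = 0.00268).

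The let-7 family, which promotes differentiation and is held down by Lin28 in immature cells, was lower in tissue in part of its members. Of 9 tested assays sharing the seed, 5 were lower and none was called higher, where 25.2% of all tested assays were lower. The median was -0.91, and let-7b and let-7c alone of the 5 stayed below 0 with U6 scaling. Let-7c had 3.87 and 3.74 in tissue against 6.64, 7.27 and 7.78 in sorted cells (difference -3.44 ± 0.29, SE, limma adjusted p = 8.41e-06). Let-7b had 3.42 and 2.88 against 6.0, 6.37 and 6.77 (difference -3.22 ± 0.25, SE, limma adjusted p = 5.6e-06).

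Both let-7b and let-7c were clear of the sorted samples, and their sequences differ by 1 base. Let-7f, which differs from let-7c by 2 bases outside the seed, had 0.15 and 0.70 against -0.64, 0.93 and 2.51, and its difference of -0.44 was not called. MiR-98 spread from -5.74 to 2.62 among the sorted samples and was not called either (difference 1.72 ± 1.82, SE).

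The miR-15 and miR-16 family, which restrains the cell cycle, had 2 of 6 tested assays lower and none higher, where 25.2% of all tested assays were lower. Both turned positive with U6 scaling. MiR-15b had -1.27 and -1.20 in tissue against 0.29, 1.41 and 1.79 (difference -2.48 ± 0.27, SE, limma adjusted p = 3.01e-05). MiR-16 differed by -0.78 and was not called. In the X-linked cluster of miR-322, miR-503 and miR-450, 2 of 8 assays were lower, the share found over all tested assays (25.2%), and both were assays for miR-351 (-3.48 and -3.27), while rno-miR-450a was higher by 1.74.

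The imprinted Dlk1-Dio3 region holds the largest miRNA cluster of the mammalian genome, is expressed from the maternal copy and is active in neurons. Of 34 tested assays, 14 were higher and 4 lower, with a median of 1.18, where 23.9% of all tested assays were higher and 25.2% lower. MiR-376a had 1.33 and 1.28 in tissue against -4.89, -3.81 and -1.13 in sorted cells (difference 4.97 ± 0.64, SE, limma adjusted p = 0.0001). MiR-410 had 1.47 and 1.54 against -3.51, -2.35 and -1.58 (difference 3.88 ± 0.38, SE, limma adjusted p = 1.64e-05).

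MiR-376c and miR-136 had larger differences, 5.94 and 5.07, with 3 and 1 sorted wells at 40. MiR-434-3p, miR-411 and miR-544 were also higher, by 3.27, 3.23 and 4.56, the last with 3 sorted wells at 40. The 4 lower members were miR-770-3p (-2.74 ± 0.44, SE, limma adjusted p = 0.000445), miR-370 (-2.38 ± 0.31, SE, limma adjusted p = 0.000107), miR-134 and rno-miR-381 (-1.48 ± 0.55, SE, limma adjusted p = 0.0443). A second assay of the same name, mmu-miR-381, went the other way (3.04), with 5 sorted wells at 40, and was not tested. The 33 tested assays with a matched position lay within 281700 bases of chromosome 6 (GRCr8 chr6:134298129-134579828), so members of 1 imprinted region gave differences that ranged over 8.68. All 4 lower members turned positive with U6 scaling. With tissue as 1 sample, 6 of the list were higher and 2 lower.

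Smaller families were read in the same way, beside the 23.9% of all tested assays that were higher and the 25.2% that were lower. Both miR-26 assays were higher, miR-26a by 1.81 ± 0.30 (SE, limma adjusted p = 0.000605) and miR-26b by 1.67. In the miR-130 and miR-301 family, miR-301b, miR-301a and miR-130a were higher by 1.92, 1.73 and 0.93, and miR-130b was not called (-1.08). Of the miR-99, miR-100 and miR-125 assays, miR-125a-5p was higher by 1.01, while miR-125a-3p and miR-125b-3p were lower (-1.96 and -2.53), and 4 others were not called.

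Of miR-221 and miR-222, which share a seed and a transcript on the X chromosome, miR-222 was higher by 1.33 ± 0.31 (SE, limma adjusted p = 0.00445) and miR-221 was not called (0.56). In the miR-23, miR-27 and miR-24 clusters, miR-27b was higher by 2.14, and miR-27a, miR-23b and miR-24 were not called (2.28, 1.71 and -0.44). MiR-27a and miR-23b each had 1 undetermined sorted well, and with such wells left out miR-27a passed (1.61, limma adjusted p = 0.0451). Neither miR-181 assay was called (0.59 for miR-181c and -0.36 for miR-181a).

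Outside the lists, miR-21 had -0.46 and -0.33 in tissue against -6.67, -3.71 and -2.40 in sorted cells (difference 3.38 ± 0.86, SE, limma adjusted p = 0.00743). MiR-335-5p, from an intron of the imprinted gene Mest, had 0.75 and 0.89 against -3.27, -2.55 and -1.77 (difference 3.33 ± 0.30, SE, limma adjusted p = 1.09e-05). Its other arm, miR-335-3p, differed by 0.12. Over 22 pairs in which both arms of a hairpin were tested, 15 pairs had differences of the same sign, and in 1 pair, miR-125a, the arms were called in opposite directions. The lower arm, miR-125a-3p, turned positive with both reference scalings (1.03 with U6 and 0.50 with the others). It was not called after the correction for G and C content described below (-0.44, limma adjusted p = 0.629).

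On the lower side, miR-672, an X-linked miRNA, had -0.65 and -0.86 in tissue against 3.02, 3.46 and 4.65 in sorted cells, a narrow range (difference -4.34 ± 0.39, SE, limma adjusted p = 1.08e-05). MiR-467b had -10.0 and -6.68 against -5.05, -2.51 and -0.56 (difference -5.95 ± 1.04, SE, limma adjusted p = 0.000781). Its tissue samples differed by more than 3 cycles, which is far above their usual gap.

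MiR-687, miR-188-5p, miR-680 and miR-214 were lower (-4.72, -4.02, -3.96 and -3.85), each without overlap. MiR-296-3p was the only assay undetermined in both tissue samples and determined in at least 7 sorted samples. It was read in 8 of the 10 sorted samples, the earliest at Ct 29.5, and in tissue its scaled level was bounded at -16.3. Its other arm, miR-296-5p, was lower (-2.24).

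Markers of cell types other than neurons were read to see which cells each group could hold. MiR-219 and miR-338, which promote oligodendrocyte differentiation, were readable in tissue and mostly undetermined in sorted cells. MiR-219 (the 5p arm) had Ct 25.1 and 25.6 in tissue and was determined in 2 of 10 sorted samples, non-stellate 1 and 3. Its scaled level was -1.41 and -1.94 in tissue, -2.60 in non-stellate 1 (Ct 31.5, the earliest) and -1.80 in non-stellate 3, which lay between the tissue values. MiR-219-2-3p had Ct 25.4 and 25.7 and was determined in 4 sorted samples. MiR-338-3p had Ct 28.6 and 29.0 and was determined in 3. These 3 were not tested, because too few sorted wells were read.

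At the tissue's scaled level these assays would sit at a median Ct of 30.6, 30.8 and 34.03 in the sorted samples. The fourth assay of the list, rno-miR-219-1-3p, from a different locus, went the other way, with -11.3 and -11.3 in tissue against -10.5, -6.47 and -3.55 in sorted cells (difference -4.88 ± 1.14, SE, limma adjusted p = 0.00466). This assay was read late, at Ct 34.998 and 34.996 in tissue and from 32.92 in sorted cells. The -10.5 is the undetermined well of stellate 3. The call was kept with undetermined wells left out (-5.23). It was lost with U6 scaling (-1.89, limma adjusted p = 0.135) and with the 4 other references (-2.42, limma adjusted p = 0.114). Quantile normalization (-2.64) and a correction for G and C content, described below (-2.74), also ended it. The summed level of the 4 assays was -0.49 and -0.91 in tissue and at most -1.61 in any sorted sample, and 1 sorted sample had none determined.

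Vascular miRNAs were higher in tissue in value, and 2 of 4 assays passed, where 23.9% of all tested assays were higher. MiR-126-5p, an endothelial miRNA from an intron of Egfl7, had 0.74 and 0.60 in tissue against -5.72, -3.20 and -0.88 in sorted cells (difference 3.79 ± 0.91, SE, limma adjusted p = 0.00523, and 0.0511 with tissue as 1 sample). MiR-126-3p differed by 2.92 ± 0.92 (SE, limma adjusted p = 0.0221, and 0.124 with tissue as 1 sample), and 1 sorted sample reached 3.69, level with the tissue at 3.72 and 3.56.

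MiR-143 and miR-145, miRNAs of smooth muscle cells, differed by 3.22 and 1.97 and were not called (limma adjusted p = 0.0739 and 0.0605). For miR-143 the tissue, at 0.35 and 0.27, was above all sorted samples, and the well of non-stellate 5 was undetermined. Without non-stellate 5 the miR-143 difference was 2.59 and passed (limma adjusted p = 0.00106), and with undetermined wells left out it also passed (limma adjusted p = 0.000525). The summed level of the 4 vascular assays was 4.75 and 4.58 in tissue, 1.25 to 4.42 in stellate samples and 1.17 to 2.74 in non-stellate samples.

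Blood and microglia miRNAs gave mixed values. MiR-451, the erythroid miRNA, had Ct 26.7 and 26.9 in tissue and was undetermined in all 10 sorted samples. MiR-142-3p, of haematopoietic cells and microglia, had -0.40 and -0.47 in tissue against -5.65, -3.14 and -2.46 (difference 3.03 ± 0.65, SE, limma adjusted p = 0.00268). MiR-486, also erythroid, was lower in tissue, at -0.59 and -0.76 against 1.73, 2.44 and 3.07 (difference -3.10 ± 0.31, SE, limma adjusted p = 1.64e-05).

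MiR-150 was not called (1.19). MiR-155 cannot be read here, since non-stellate 3 and 5 gave levels of 18.9 and 19.2 above the median assay, far from the -6.55 to which the sorted samples reached down. The summed level of the other 7 assays of the list was 3.74 and 3.80 in tissue and 3.08 to 5.44 in sorted cells. This sum overlapped between the groups, but it leaned on miR-150 in tissue and in the highest sorted samples. MiR-150 alone had 3.27 and 3.36 in tissue and -0.24 to 5.095 in sorted cells. MiR-451 and miR-142-5p were read in tissue alone. For miR-142-5p the tissue's scaled level would fall under Ct 35 in only 4 sorted samples, and miR-142-3p was determined in all 10.

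MiR-449a, a miRNA of multiciliated cells such as choroid plexus and ependyma, had the largest negative difference among assays determined in all 12 samples. It had -8.07 and -5.73 in tissue against -2.87, 0.46 and 3.84 in sorted cells (difference -7.42 ± 1.29, SE, limma adjusted p = 0.000739). MiR-34b-3p, also of ciliated cells, was lower (difference -2.09, limma adjusted p = 0.0476, and 0.185 with tissue as 1 sample) and miR-34c was not called (-1.85). MiR-204, abundant in choroid plexus, was higher by 0.77 ± 0.24 (SE, limma adjusted p = 0.0209, and 0.121 with tissue as 1 sample).

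Of 12 assays for miRNAs of muscle, heart, liver and pancreas, 10 were determined in both tissue samples and 2 were determined in enough sorted samples to be tested, and miR-375, of pancreatic islets and neuroendocrine cells, was lower (-5.67 and -4.07 against -2.70, -0.83 and 2.40, difference -4.20). MiR-133a was not called (0.89). Of the 12 assays of the embryonic stem cell clusters, 1 was tested and not called (miR-292-3p, -1.97), and 5 were undetermined in all samples. Of the miR-200 family, only miR-200a was tested; 1 tissue well was at 40 and the other at -0.19, so it has no usable tissue value.

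Of the 286 assays determined in both tissue samples, 11 were undetermined in all 10 sorted samples. From the highest level down they were miR-451, miR-369-3p, miR-23a, rno-miR-409-5p, miR-142-5p, rno-miR-344-5p, rno-miR-421, miR-205, miR-879, miR-216a and miR-10b. A second assay of the same name, mmu-miR-409-5p, had Ct 24.9 and 24.6 in tissue. It was determined in 5 sorted samples, the earliest at Ct 32.8, so the empty wells of rno-miR-409-5p do not show that this miRNA was absent there. MiR-369-3p, of the Dlk1-Dio3 region, had Ct 26.9 and 26.9 in tissue. MiR-10b, at Ct 35.4 and 35.2, was barely read in tissue.

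Whether an undetermined well is informative depends on the Ct expected at an unchanged scaled level. For miR-451 this was 31.1 to 34.03 in the 10 sorted samples and for miR-369-3p 31.2 to 34.1, under 35 in all 10. The expected Ct takes in the shift of the median alone, and not the relation to G and C content given below. MiR-369-3p has 23.8% G and C and miR-451 has 36.4%, so the expected Ct may be too low for them. The highest Ct determined on any card was 38.2. For miR-216a and miR-10b the expected Ct was above that in every sorted sample, so they could not have been read there at the tissue's level. The other 7 lay between, with miR-23a expected under 35 in 9 sorted samples and rno-miR-409-5p in 8. No fold change is given for these assays.

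**Figure D4:**
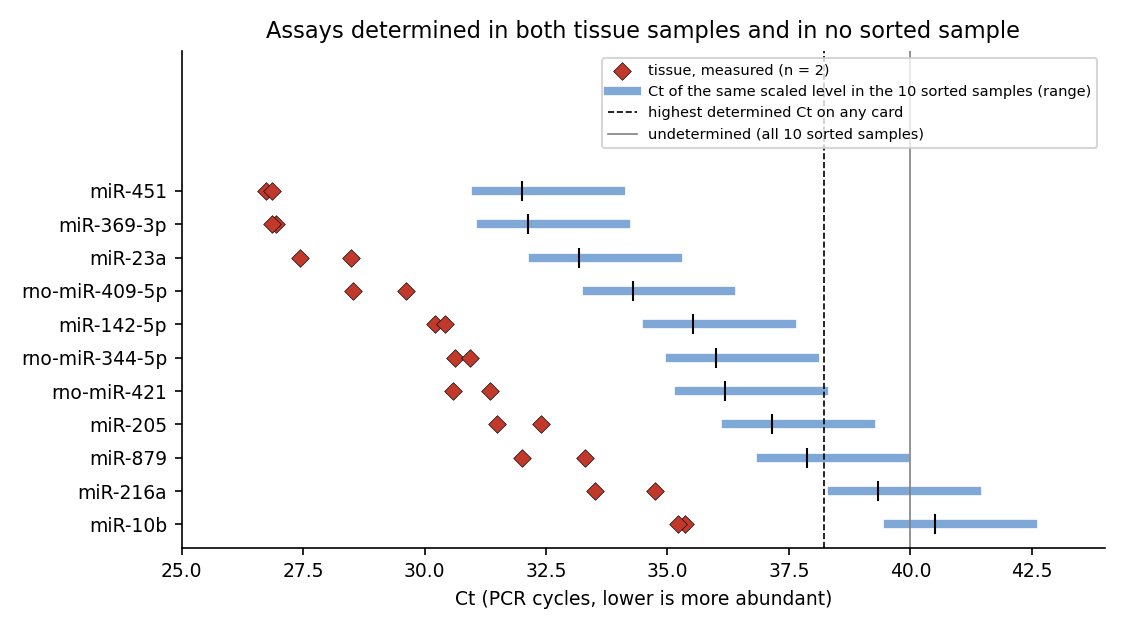
Ct (PCR cycles, x axis) of the 11 assays determined in both tissue samples and in no sorted sample; diamonds are the tissue readings, and bars span the Ct that the same scaled level would have in the 10 sorted samples. The bars of miR-451 and miR-369-3p end at 34.03 and 34.1, below the highest determined Ct of 38.2 (dashed line), while those of miR-216a and miR-10b lie beyond it.

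A further 56 assays were determined in both tissue samples and in 1 to 6 sorted samples. The earliest of them in tissue was miR-425, at Ct 24.6 and 24.2, which was determined in 1 sorted sample at Ct 29.0, although its expected median Ct was 29.6. In that sample its scaled level of -0.84 lay between the tissue values of -0.89 and -0.53, and the assay was singled out after its values were seen. MiR-153, a neuronal miRNA, had Ct 27.9 and 28.1 in tissue and was likewise determined in 1 sorted sample, at Ct 35.5. In the other direction, 67 assays were undetermined in both tissue samples, and 20 of these were determined in at least 1 sorted sample.

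Base composition went with the differences. Mature sequences were matched for 185 of the 222 tested assays, and across these assays the difference and the percentage of G and C had a Spearman rho of -0.50 and a Pearson r of -0.51 (assays are not independent and share the same libraries). Of 23 assays under 35% G and C, 13 were higher in tissue and 0 lower, with a median of 1.94. Of 24 assays at 60% or more, 18 were lower and 0 higher, with a median of -2.46. The relation held among assays determined in all 12 samples (rho -0.49, 146 assays), where no 40 enters. The correlation was stronger among the 73 less abundant of these in sorted cells (rho -0.68) than among the 73 more abundant (rho -0.27).

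The slope of each sample's deviation from the sorted mean was -0.131 and -0.140 log2 units per percentage point of G and C in the tissue samples. In the sorted samples it ran from -0.0239 to 0.0307 (exact two-sided permutation p = 0.0152, the smallest possible). The part of extraction, input, pre-amplification or age in this slope was not tested. Among the sequences printed above, miR-384-3p has 27.3% G and C, and miR-370 and miR-770-3p have 68.2% and 70.6%.

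When a straight line in G and C was taken out of each sample, 35 assays were higher and 40 lower of 185, against 46 and 44 of the same 185 without it. Of the 90 calls, 55 were kept, 53 of them in the same direction, and 20 assays were called anew. MiR-29a, miR-29b and miR-29c stayed higher, by 3.83, 4.86 and 4.47, as did miR-137 (2.46), miR-132 (2.65), miR-218 (1.73) and miR-384-5p (1.39). MiR-17, miR-92a, miR-449a and miR-672 stayed lower (-3.80, -2.83, -7.75 and -4.35).

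Several accounts changed with that correction. In the let-7 family 8 of 9 assays were then lower, let-7f among them (-2.61), and the median was -2.57. MiR-770-3p and miR-370 became 0.34 and 0.38 and were not called, and miR-384-3p and miR-26b lost their calls (3.98 and -0.30). MiR-9, miR-7a and miR-7b, which had not been called, became lower (-1.61, -1.54 and -1.69). MiR-19a became -0.78 and was no longer called. Of 8 neuronal assays with a sequence, 3 were then higher and 3 lower, and of 33 Dlk1-Dio3 assays 9 were higher and 1 lower. MiR-142-3p lost its call (1.26), and miR-126-5p kept it (2.46). MiR-21 (1.82), miR-376c (3.97), miR-544 (2.59), miR-30e (0.59), miR-204 (0.44), miR-130a (-0.015) and rno-miR-450a (0.18) also lost their calls. So did miR-134 and miR-125a-3p on the lower side (-0.44 for each). MiR-138 (2.61), miR-145 (2.56), miR-133a (1.80) and miR-130b (-1.41), which had not been called, were then called.

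**Figure D5:**
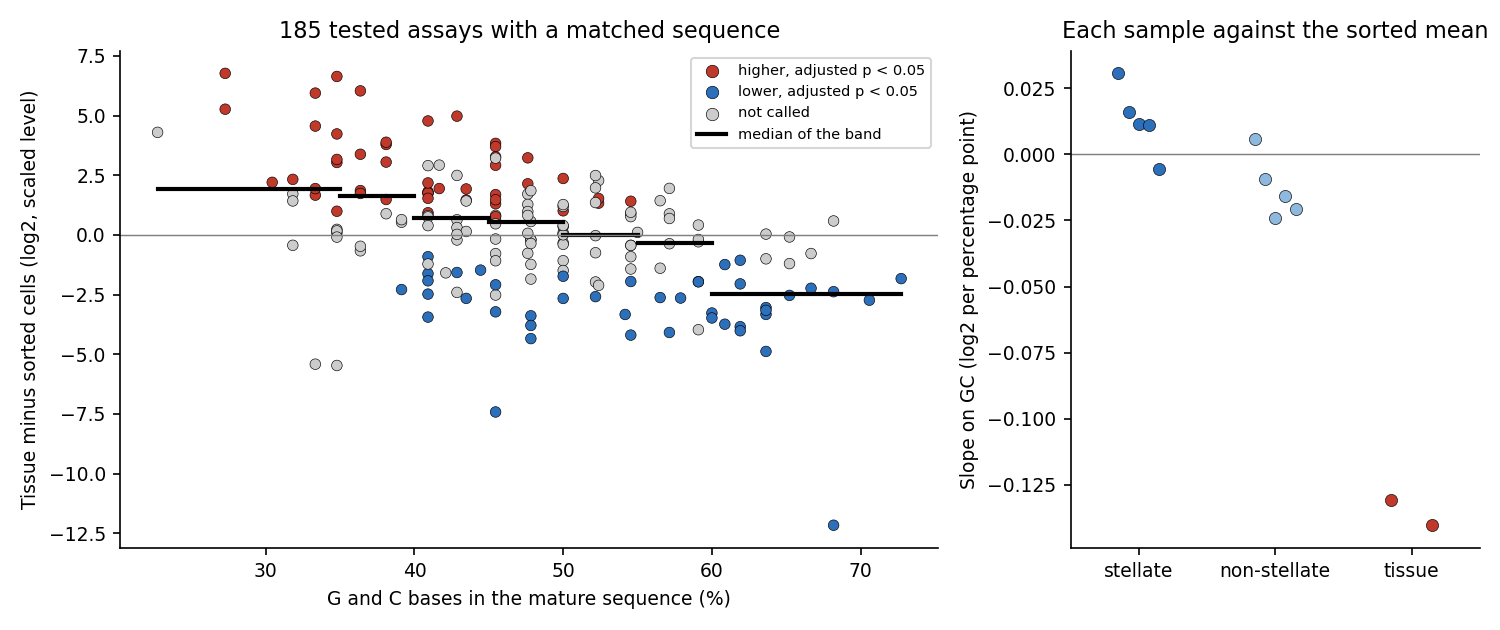
Left, difference between tissue and sorted cells (log2 of scaled level, y axis) against the percentage of G and C in the mature sequence for 185 tested assays, with bars at the median of each band. Right, the slope of each sample's deviation from the sorted mean on G and C (log2 per percentage point): both tissue samples lie near -0.13 to -0.14, and the 10 sorted samples between -0.0239 and 0.0307.

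The tissue was also set against each sorted population. Against stellate samples alone 43 were higher and 53 lower, and against non-stellate samples alone 55 and 61; both comparisons share the tissue samples. MiR-29a exceeded stellate samples by 4.91 and non-stellate samples by 4.64, and miR-137 by 4.19 and 4.27. For miR-17 the differences were -3.37 from stellate and -4.22 from non-stellate samples. Between stellate and non-stellate samples no assay passed in the same limma fit (0, with 36 at an unadjusted p under 0.05).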

How the data were processed

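The deposited Ct values, which lie on a log2 scale of falling sign, were made by the authors with Megaplex reverse transcription, pre-amplification, the TaqMan card and the ViiA7 software, with 40 for undetermined wells. The authors' second table, Ct minus the U6 mean by HTqPCR, was read only to check that it follows from the first. Members and lists were chosen with earlier results of these data known. Each sample was scaled by its median Ct over 176 miRNA assays under 40 in all 10 sorted samples. Assays under 40 in at least 7 of them (222) were fitted with limma 3.58.1 (R 4.3.3), as 3 groups with the contrast of tissue against the mean of both sorted groups and Benjamini-Hochberg adjustment. Single values had exact two-sided permutation tests over 66 splits. The 10 largest differences in each direction, among called assays determined in all 12 samples without overlap, were named with the listed families. Each assay is 1 well per card, so P values measure the spread between samples, which may be technical. The plots are of the same values. On simulated data of 222 assays, 58.3% of log2 changes of 2 and 82.9% of changes of 4 were recovered. The simulation drew independent noise at the spread of the sorted samples, for tissue also, with 60 assays changed and no well set to 40. These rates therefore do not give the power in the real data. Sequences and coordinates were RefSeq, GRCr8, matched for 266 of 375 assays.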

Additional observations from a re-analysis of the deposited data

Results flagged for a closer look

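In 48 groups of 5 sorted samples screened for a sample far from the others, 3 were found, against 2.4 that chance would give. MiR-376a had a scaled level of -1.13 in stellate 1, and -4.03 to -3.29 in the other stellate samples. MiR-434-3p, from the same imprinted region, had 3.13 in stellate 1 and 1.37 to 1.85 in the others. The median Ct of stellate 3 was 29.5, and that of the other stellate samples 27.96 to 28.3. The well of the plant control, which should hold no rat RNA, read Ct 34.1 in stellate 2.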

How the results depend on the processing

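Counts of miRNAs higher and lower in tissue were 53 and 56. They became 138 and 3 with U6 scaling and 134 and 9 with the mean of the 4 other reference RNAs. With both tissue samples averaged, 26 were higher (39 lower), with array weights 83 (81 lower), and with a correction for G and C content, added after seeing the data, 35 (40 lower). That correction covers the 185 assays with a sequence, which gave 46 and 44 without it. Leaving out 1 sample at a time gave 24 to 57 higher and 38 to 60 lower, and the lowest counts came without tissue 1 (24 and 38) and without tissue 2 (28 and 44). The counts stayed within 1.5 times under the other scalings, filters and treatments of undetermined wells.

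With the replicate number as a random block the counts were 50 and 54. The block ended the calls of miR-19a, rno-miR-381, miR-34b-3p and miR-130a (limma adjusted p = 0.0581, 0.0678, 0.0757 and 0.0569) among the named assays. Labelled and unlabelled cells were sorted from the same kind of suspension, and the labels do not say whether equal numbers mark 1 preparation. The deviations of equal numbers correlated from -0.05 to 0.25, which does not settle it.

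The 11 assays read in tissue alone became 22 when 1 sorted sample was allowed to be read, and 11 to 17 when 1 sample was left out. The 1 assay read in sorted cells alone became 0 when all 10 had to be read, and 1 to 3 with 1 sample left out. Without tissue 1 or 2, the U6 difference was 2.81 or 3.17 and the difference in determined assays 63.8 or 53.8, where 1 against 10 cannot go below an exact permutation p of 0.0909.

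Of 2828 values of 87 named assays under these settings, 2526 kept their call, 160 lost and 93 gained one, and 49 changed sign.

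Differences that changed sign were, with U6 scaling, miR-328 2.23, miR-134 1.02, let-7e 1.07, miR-15b 0.51, miR-497 1.26, miR-16 2.21, miR-370 0.61, miR-770-3p 0.25, rno-miR-381 1.51, miR-34b-3p 0.90, miR-34c 1.14, miR-24 2.55, miR-125b-3p 0.46, miR-125a-3p 1.03, miR-130b 1.91, miR-181a 2.63 and miR-292-3p 1.02. With the 4 other references they were miR-328 1.70, miR-134 0.49, let-7e 0.54, miR-497 0.73, miR-16 1.67, miR-370 0.080, rno-miR-381 0.98, miR-34b-3p 0.37, miR-34c 0.61, miR-24 2.02, miR-125a-3p 0.50, miR-130b 1.38, miR-181a 2.10 and miR-292-3p 0.49. With the correction for G and C they were miR-9 -1.61, miR-98 -0.46, miR-19a -0.78, miR-195 -0.045, miR-370 0.38, miR-770-3p 0.34, miR-24 0.47, miR-130a -0.015 and miR-26b -0.30. With quantile normalization it was miR-328 0.76, with undetermined wells missing miR-200a 1.22, with stellate samples only miR-221 -0.083, with non-stellate samples only miR-9 -0.23, miR-125b-5p -0.24 and miR-99a -0.055, and with array weights miR-125b-5p -0.10. With 1 sample left out, miR-125b-5p ranged from -0.066 to 0.18 (negative without stellate 1) and miR-200a from -12.0 to 4.08 (positive without tissue 1). The cause was not tested for any of these, other than that a change of reference adds 1 constant to every difference.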
